A study of Mus musculus with 18 samples.

Results

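Contralateral and untreated retinas of 18-month-old mice (18mo) were compared by their lists of accessible chromatin. ATAC-seq maps open chromatin by the insertion of sequencing adapters by a transposase, and a peak is a stretch where the inserted fragments pile up. Each list held the peaks of 1 library of bulk retina from WT mice. The contralateral group (3 libraries, replicates 1 to 3) came from the eye without raised pressure of animals whose other eye had received raised intraocular pressure (IOP, 30 mmHg during 1 hour), and its tissue was taken on day 2 after the pressure according to the labels, whereas the study's text names a later day. The anesthesia and eye drops of the procedure belong to this group as well. The untreated group (3 libraries, replicates 4 to 6) came from animals that received no pressure. The labels of all libraries carry the same text on an injected kinase inhibitor (dasatinib), and none places a library in a drug arm. They also carry a text on crosslinked chromatin and immunoprecipitation, whereas the methods section of the study gives a transposase protocol on unfixed nuclei.

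Peaks of the 6 lists that overlapped by at least 1 bp were merged into 80171 regions, and each region was scored by how many of the 3 lists on each side called it. The regions called in 3 contralateral and 0 untreated lists (contralateral-only regions) numbered 2362, which is 2.95% of all merged regions. The regions called in 0 contralateral and 3 untreated lists (untreated-only regions) numbered 934, which is 1.17%. Among the 6761 regions called in exactly 3 of the 6 lists, these were 34.9% and 13.8%. The numbers depended on the rule of overlap and on single libraries. Contralateral-only regions numbered 7819 when a peak had to cover 50% of a region and 5454 without contralateral replicate 2, and untreated-only regions numbered 1861 when 200 bp windows around the summits were merged. These 3296 regions are described below. Calls chose them, so their absence from the opposite lists is not a result, and no region can be tested alone, since 3 libraries against 3 allow no two-sided p below 0.1.

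In the retina, rods and cones capture light and make up the bulk of the cells, bipolar and amacrine cells process their signals, retinal ganglion cells send them to the brain, and Mueller glia support all of them. The homeodomain factors Crx and Otx2 bind a short sequence with the letters TAATCC near photoreceptor and bipolar genes and help to open and activate that chromatin. In bulk tissue, fewer cells of a type and less open chromatin per cell cannot be told apart.

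The lists differed in form as well as in the kind of control. The shortest listed peak was 114, 149 and 114 bp in the contralateral lists and 89, 88 and 89 bp in the untreated lists. The median peak width was 264, 368 and 269 bp against 186, 189 and 192 bp, and every contralateral list lay above every untreated list. The number of peaks overlapped between the groups, with 60755, 51166 and 57297 peaks against 54009, 50595 and 53423. The depth implied by the steps of the fold values was an estimated 20.2 to 23.4 M tags in contralateral and 18.1 to 19.9 M tags in untreated libraries. This estimate is rough and rests in part on the shortest peak, which itself differed between the groups. Peak width, depth and whatever else separated the preparation of the libraries cannot be told apart from the kind of control, and their part in the results below was not tested.

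**Figure D1:**
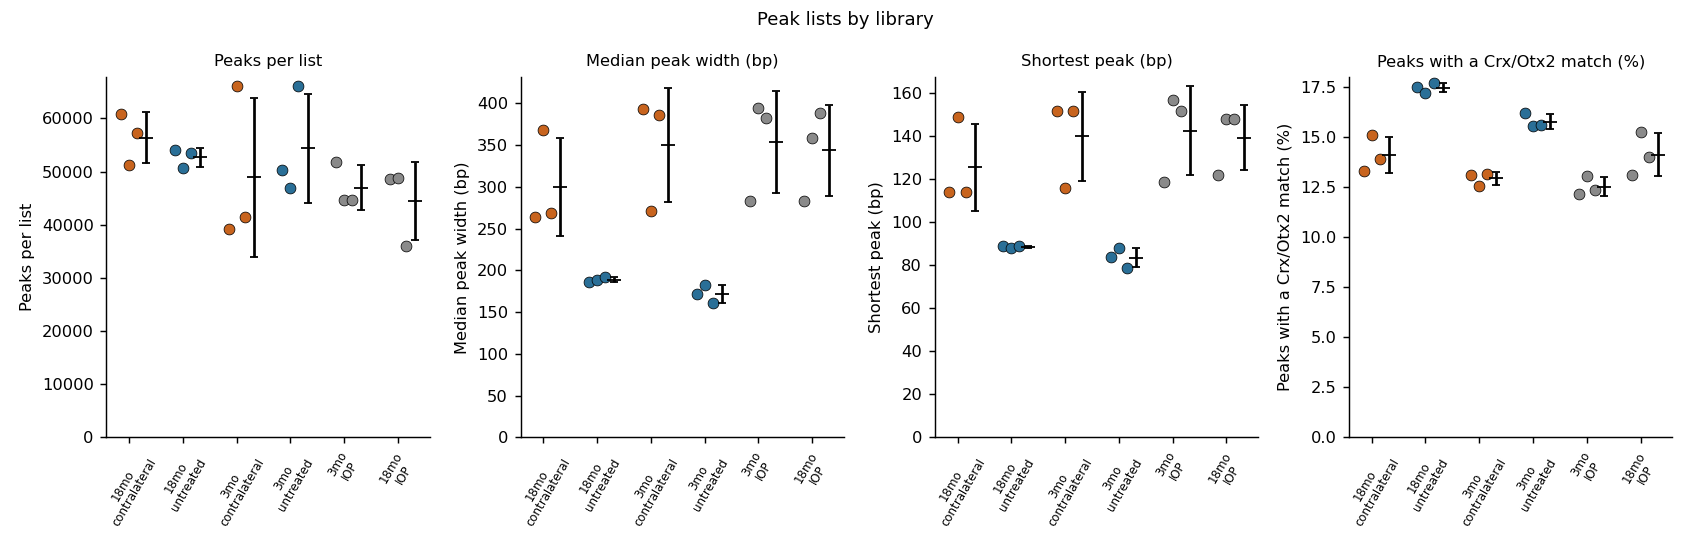
Peaks per list, median peak width (bp), shortest peak (bp) and the share of peaks with a Crx/Otx2 match (%) in each of the 18 libraries, by group, with contralateral libraries in orange, untreated ones in blue and IOP ones in grey. Points are libraries and bars give the mean and SD of 3. The 6 untreated libraries have the narrowest peaks and, at each age, a higher Crx/Otx2 share than the contralateral libraries.

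The sequence read by the photoreceptor factors was frequent in untreated-only regions and rare in contralateral-only regions. A Crx and Otx2 match (TAATCC on either strand in the 200 bp around the median summit) was present in 306 of 913 untreated-only windows (33.5%) and in 116 of 2358 contralateral-only windows (4.92%). Over all merged regions the share was 15.2%, over regions called in all 6 lists 16.7%, and over regions called in 3 lists drawn from both sides 17.5%. The windows of 4 untreated-only regions are shown because they carry this match and contain no repeat-masked base. They lie in introns, are 4 of the 5 highest-ranked windows of this kind (the other is in Fars2), and were chosen after their values were seen. Sequences are the plus strand of GRCm38 (mm10), from RefSeq, 5′ to 3′, with the match in capitals.
Mpped2 region, chr2:106697701-106697900: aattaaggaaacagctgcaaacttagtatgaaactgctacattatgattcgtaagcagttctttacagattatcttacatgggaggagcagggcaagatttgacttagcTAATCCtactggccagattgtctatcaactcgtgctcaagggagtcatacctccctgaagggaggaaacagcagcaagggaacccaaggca
Lrrc4 region, chr6:28715866-28716065: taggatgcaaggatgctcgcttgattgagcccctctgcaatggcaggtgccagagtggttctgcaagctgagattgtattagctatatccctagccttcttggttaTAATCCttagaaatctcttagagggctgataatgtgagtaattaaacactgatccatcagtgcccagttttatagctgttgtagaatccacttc
Eif3h region, chr15:51844113-51844312: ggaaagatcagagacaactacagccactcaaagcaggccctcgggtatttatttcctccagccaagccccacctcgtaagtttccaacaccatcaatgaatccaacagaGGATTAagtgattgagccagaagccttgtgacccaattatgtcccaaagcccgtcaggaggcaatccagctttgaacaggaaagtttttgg
Hibadh region, chr6:52565962-52566161: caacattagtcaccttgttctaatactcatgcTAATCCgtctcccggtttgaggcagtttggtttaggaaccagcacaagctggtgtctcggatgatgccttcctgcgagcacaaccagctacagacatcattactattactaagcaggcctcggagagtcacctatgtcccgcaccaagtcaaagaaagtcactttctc

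The Mpped2 region had summit folds over the local background of 4.05, 3.81 and 4.15 in the untreated lists. It was also called in 3 of 3 untreated 3-month-old (3mo) libraries and in none of the 12 contralateral and IOP libraries of both ages. The region in Lrrc4, which encodes a synaptic adhesion protein and here lies inside the larger gene Snd1 as well, had folds of 8.45, 9.27 and 7.39 and was called in no other library of the series. The region in Eif3h, a gene for a subunit of a translation initiation factor, had folds of 8.6, 6.86 and 9.77 and was called in 3 of 3 untreated and 1 of 3 contralateral 3mo libraries. The region in Hibadh, an enzyme of valine breakdown, had folds of 5.16, 6.27 and 7.69 with the same calls at 3mo, and the nearest contralateral peak was 288 bp away.

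The share with a Crx and Otx2 match moved with the score. Among regions called in 3 contralateral lists it was 4.92%, 8.21%, 10.3% and 16.7% when 0, 1, 2 and 3 untreated lists called them. Among regions called in 3 untreated lists it was 33.5%, 33.5%, 28.7% and 16.7% when 0, 1, 2 and 3 contralateral lists called them. Regions called in a single untreated list had a match in 22.9%, and those called in a single contralateral list in 7.76%. The letters of a motif follow base composition, and the untreated-only windows had a median GC content of 48% against 54% in contralateral-only windows and 52.5% in all regions. Windows of like GC content were therefore compared. Among windows of 40 to under 50% GC a match was found in 42.9% of untreated-only and 8.13% of contralateral-only windows, with 25.3% over all regions. At 50 to under 60% GC it was 26.3% against 4.55%, with 13% over all regions. At 60% GC and above the shares were low on both sides, 3.33% and 1.6%. Within introns the share was 38.5% against 4.76%, with 19.4% over all regions and 26.3% over those called in all 6 lists. Between genes it was 24.8% against 6.13%, with 15.7% and 20.5%. When windows more than 50% repeat-masked were left out, the shares were 35.2% and 4.90%, with 14.8% over all regions.

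**Figure D2:**
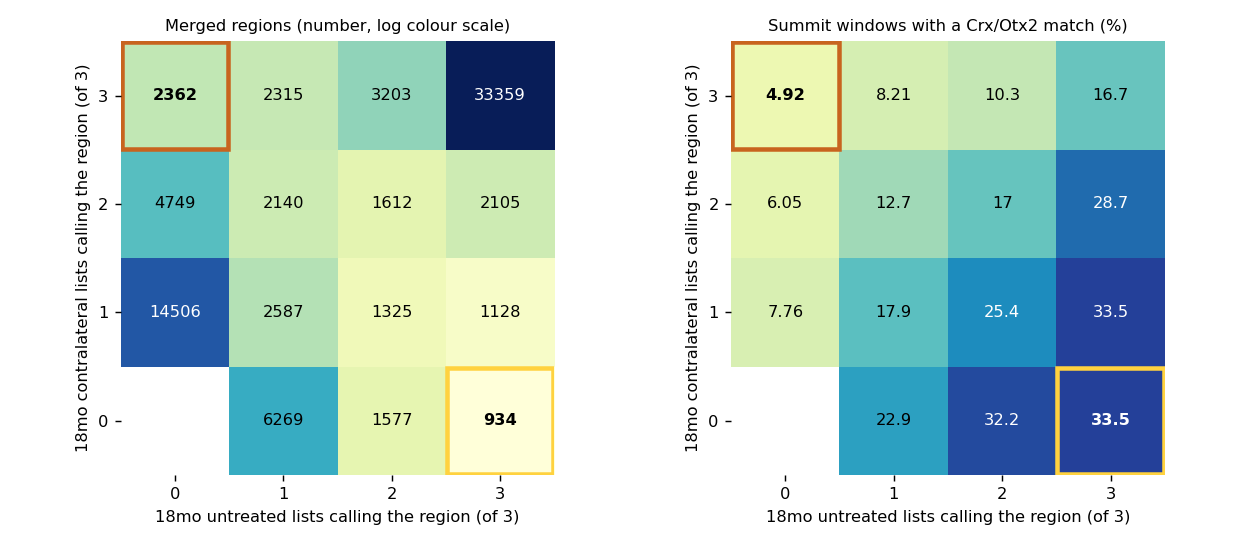
Each cell is a pair of scores, with the number of the 3 untreated lists calling a region on the horizontal axis and of the 3 contralateral lists on the vertical axis. The left panel gives the number of merged regions (log colour scale) and the right panel the share of summit windows with a Crx/Otx2 match (%). The framed cells are the 2362 contralateral-only and 934 untreated-only regions, with shares of 4.92% and 33.5%.

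The same measure was taken per library, over all peaks of a list. A Crx and Otx2 match was present in 13.3%, 15.1% and 13.9% of the peaks of the 18mo contralateral lists and in 17.5%, 17.2% and 17.7% of those of the 18mo untreated lists. All untreated lists lay above all contralateral lists (difference -3.36 percentage points, contralateral minus untreated, p = 0.1, exact permutation test, two-sided, the smallest this design allows). These 18mo lists chose the members and still hold them among their peaks. The 18mo difference is therefore not separate support for the member shares, and this measure was not planned. At 3mo, in libraries that did not enter the choice of regions, the shares were 13.1%, 12.6% and 13.2% in contralateral, 12.2%, 13.1% and 12.4% in IOP and 16.2%, 15.6% and 15.6% in untreated retinas. The 6 contralateral and IOP libraries lay 3.05 points below the 3 untreated ones (p = 0.0238, adjusted p = 0.0714 over 3 such tests, exact permutation test, lower in 6 of 6 libraries). The 3mo lists gave their own exclusive regions. Of 931 windows called in 3 untreated and 0 contralateral 3mo lists, 32.8% had a match, against 7.03% of the 384 windows called the opposite way. The share was 34.3% among the 759 such untreated windows of 3mo that overlapped no untreated-only region of 18mo.

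Other motifs differed less. The bHLH E-box (CAGATG on either strand, read by proneural factors of the Neurod family among others) was found in 20.9% of contralateral-only and 15.7% of untreated-only windows, with 18.2% over all regions and 21.5% over regions called in 3 lists from both sides. The CTCF consensus, bound by the insulator protein CTCF, was found in 6.02% against 1.42%, with 5.87% over all regions, so that here the untreated-only regions stood below the rest. The shares for AP-1 (TGACTCA, 4.07% and 4.60%) and STAT (TTCNNNGAA, 3.90% and 4.16%), factors of stress and cytokine responses, were near those over all regions (4.08% and 4.18%). The homeodomain core TAATTA was found in 4.11% and 5.48% (3.97% over all regions) and the GC box GGGCGG in 12% and 10.1% (18.0%). The ROR sequence TAGGTCA was found in 2.80% and 4.16% (2.92%). The longer NRF1, MEF2 and NFI sequences were rarer still, with 0.339% and 0% for NRF1, 0.382% and 0.219% for MEF2 and 0% in both for NFI (1.79%, 0.487% and 0.0312% over all regions). Motifs were searched on both strands, and the CTCF consensus can share letters with a GC box or an E-box. The windows of 2 contralateral-only regions with an E-box, chosen like those above, are shown with the match in capitals.
Cacng4 region, chr11:107778952-107779151: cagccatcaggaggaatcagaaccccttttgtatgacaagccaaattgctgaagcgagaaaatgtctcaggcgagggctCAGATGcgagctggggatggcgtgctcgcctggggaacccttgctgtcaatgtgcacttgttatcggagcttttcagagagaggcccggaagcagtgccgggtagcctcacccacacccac
Dnajc5b region, chr3:19566974-19567173: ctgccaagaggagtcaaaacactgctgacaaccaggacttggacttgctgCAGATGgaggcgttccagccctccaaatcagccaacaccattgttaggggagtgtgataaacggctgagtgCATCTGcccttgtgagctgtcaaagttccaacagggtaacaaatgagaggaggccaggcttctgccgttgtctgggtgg

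The region in Cacng4, which encodes an auxiliary subunit of AMPA glutamate receptors, had summit folds of 9.72, 7.31 and 8.75 in the contralateral lists. It was called in all 9 other contralateral and IOP libraries and also in all 3 untreated 3mo libraries, so that the untreated 18mo retinas were the exception. The region in Dnajc5b, a gene for a DnaJ co-chaperone, had folds of 9.45, 6.42 and 9.26 and was called in 2 of 3 untreated 3mo libraries.

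**Figure D3:**
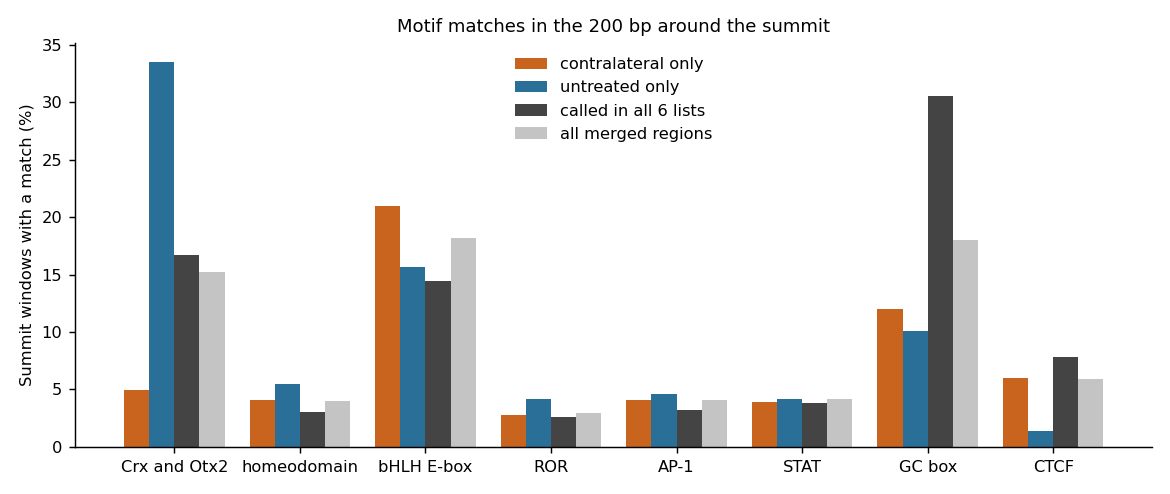
Share of 200 bp summit windows with a match to each motif (%), for contralateral-only regions (orange), untreated-only regions (blue), regions called in all 6 lists (dark grey) and all merged regions (light grey). The Crx/Otx2 bars stand at 4.92% and 33.5% on either side of 15.2% over all regions, and the CTCF bar is lowest in untreated-only regions.

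Both kinds of region ranked below those called in all 6 lists and lay mostly away from promoters. Within its own list, a contralateral-only peak had a median percentile of the −log10 q-value of 30.3, 20.1 and 26.3 in replicates 1 to 3, and an untreated-only peak 31.2, 27.8 and 30.4 in replicates 4 to 6, where regions called in all 6 lists had a median of 67.4. Averaged over the calling lists, the medians were 25.9 and 29.1, against 31.7 over all regions and 20.6 over regions called in 3 lists from both sides. Contralateral-only regions were 315 bp wide in the median and untreated-only regions 150 bp, against 288 bp over all regions. Promoters (from 1 kb before a transcription start site, TSS, to 100 bp past it) held 242 contralateral-only regions (10.2%) and 58 untreated-only regions (6.21%), against 18.5% of all regions. The order of the groups turned with 200 bp summit windows, where promoters held 11.4% of contralateral-only and 22.9% of untreated-only regions. Introns held 45.4% and 63.9% (48.5% of all regions), exons 7.58% and 3.00% (6.72%), and sequence between genes 36.8% and 26.9% (26.3%). The nearest peak of the opposite group lay at a median distance of 9482 bp from a contralateral-only region and 3736 bp from an untreated-only one, and within 1000 bp for 14.7% and 23.2%. Just outside the threshold stood 4749 regions called 2 to 0 and 2315 called 3 to 1 on the contralateral side, and 1577 and 1128 on the untreated side.

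Some of the highest-ranked members lay in repeated DNA. Windows more than 50% repeat-masked made up 12 of the 20, 17 of the 50 and 18 of the 100 highest-ranked contralateral-only windows, against 3.01% of all of them. On the untreated side they made up 5 of 20, 22 of 50 and 40 of 100, against 24.4% of all untreated-only windows, so the 20 highest-ranked were near that share. Over all regions it was 6.33%. The 8 highest-ranked contralateral-only regions were a pair beside the predicted genes Gm10717 and Gm10718 at the start of chromosome 9, 1 near Gm21748 on chromosome Y, 1 in an intron of Fcgr1, an Fc receptor gene, 1 in an intron of Phf21a, and 3 between genes, where the nearest coding genes were Tmem196, 1700009N14Rik and Wls. The window of Fcgr1 is shown because it is built of repeated units, and no motif searched occurs in it.
Fcgr1 region, chr3:96287461-96287660: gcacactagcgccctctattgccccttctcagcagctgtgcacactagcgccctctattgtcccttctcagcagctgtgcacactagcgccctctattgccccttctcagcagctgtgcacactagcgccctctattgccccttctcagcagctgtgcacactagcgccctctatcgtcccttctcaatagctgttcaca

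The Tmem196 region, 82417 bp from that gene's TSS, had summit folds of 13.2, 12.2 and 16.4 and was called in all 9 other contralateral and IOP libraries and in none of the 3 untreated 3mo libraries, as was the Fcgr1 region with folds of 14.8, 10.7 and 18.3. The 3 regions nearest to Tmem196, 1700009N14Rik and Wls were 87.0 to 100% repeat-masked.

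The 8 highest-ranked untreated-only regions lay in introns of 2210408I21Rik, Cdk5rap2 and AI481877 or had Epm2a, Ezh2, Gtpbp4, Fhl4 and Neto1 as nearest coding genes. The Neto1 region lay 696860 bp upstream of that gene's TSS. The Epm2a region, 148741 bp downstream of the TSS of the gene for the glycogen phosphatase laforin, had summit folds of 29.0, 25.9 and 24.7, and a GC content of 72.0%. The Ezh2 region lay 77373 bp upstream of the gene for a histone methyltransferase of the Polycomb complex, 71 bp from a contralateral peak, with folds of 13.8, 13.5 and 14.1. The Gtpbp4 region lay in the noncoding gene Gm36264, 15711 bp upstream of Gtpbp4, with folds of 18.3, 16.9 and 19.5. Of the 8, all but that of 2210408I21Rik were called in 3 of 3 untreated 3mo libraries and in no contralateral or IOP library. The windows of Epm2a and Gtpbp4 show the kind of sequence that ranks highest, and they too hold none of the motifs searched.
Epm2a region, chr10:11492045-11492244: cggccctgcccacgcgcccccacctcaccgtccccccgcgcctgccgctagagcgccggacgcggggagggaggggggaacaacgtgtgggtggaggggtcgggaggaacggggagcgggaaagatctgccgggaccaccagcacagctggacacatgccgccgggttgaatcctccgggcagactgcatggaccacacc
Gtpbp4 region, chr13:9011694-9011893: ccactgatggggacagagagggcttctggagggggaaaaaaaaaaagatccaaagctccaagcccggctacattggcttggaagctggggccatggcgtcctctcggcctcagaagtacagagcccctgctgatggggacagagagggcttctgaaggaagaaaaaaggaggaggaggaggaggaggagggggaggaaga

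The libraries that did not choose the regions were then read at the same places. The untreated-only regions were called in 3.64%, 20.2% and 5.14% in the 3mo contralateral libraries, in 8.67%, 6.75% and 8.24% in the 3mo IOP libraries, and in 50.7%, 36.8% and 70.7% in the 3mo untreated libraries. Every untreated library lay above every other. The contralateral-only regions were called in 36.5%, 89.0% and 45.0% in 3mo contralateral, 59.9%, 54.0% and 56.0% in 3mo IOP and 27.8%, 29.1% and 59.4% in 3mo untreated libraries, and these groups overlapped. Over all merged regions the corresponding shares were 47.4%, 70.5% and 49.9%, 57.7%, 53.8% and 52.7%, and 53.5%, 50.2% and 65.9%. The 18mo IOP libraries called 58.5%, 58.7% and 21.2% of the contralateral-only and 9.53%, 15% and 5.57% of the untreated-only regions.

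The 2 shares of a library were subtracted (contralateral-only minus untreated-only). The difference still moved with how much a library called, and the 3mo contralateral libraries with 39202, 41499 and 66160 peaks had differences of 32.9, 39.8 and 68.8 points. The difference was 47.2 ± 19.0 points in 3mo contralateral libraries and -14.0 ± 7.97 points in 3mo untreated libraries (SD, n = 3 each), a gap of 61.2 points (p = 0.1, adjusted p = 0.171 over 12 tests, exact permutation test, two-sided, the smallest p this design allows). With the 3mo IOP libraries (48.8 ± 2.2 points, SD, n = 3) added, the gap was 62.0 points (p = 0.0238, adjusted p = 0.171, exact permutation test, 6 against 3 libraries, higher in 6 of 6). That p too counts contralateral and IOP libraries as independent, although they may come from both eyes of the same animals. The full pattern of 3 lists to 0 was present at 3mo in 81 contralateral-only regions (3.43%, where 0.556% of all merged regions had it) and in 176 untreated-only regions (18.8%, where 1.11% of all merged regions had it). The opposite pattern was present in 5 and 1. In all 18 libraries 18 contralateral-only (0.762%) and 133 untreated-only regions (14.2%) kept to their side, IOP libraries being counted with the contralateral ones. How many of all merged regions had these calls in the libraries outside the comparison was not counted. Of the 133, 30.5% of windows were more than 50% repeat-masked and 23.4% had a Crx and Otx2 match, and of the 18, 55.6% were so masked and 0 had a match.

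**Figure D4:**
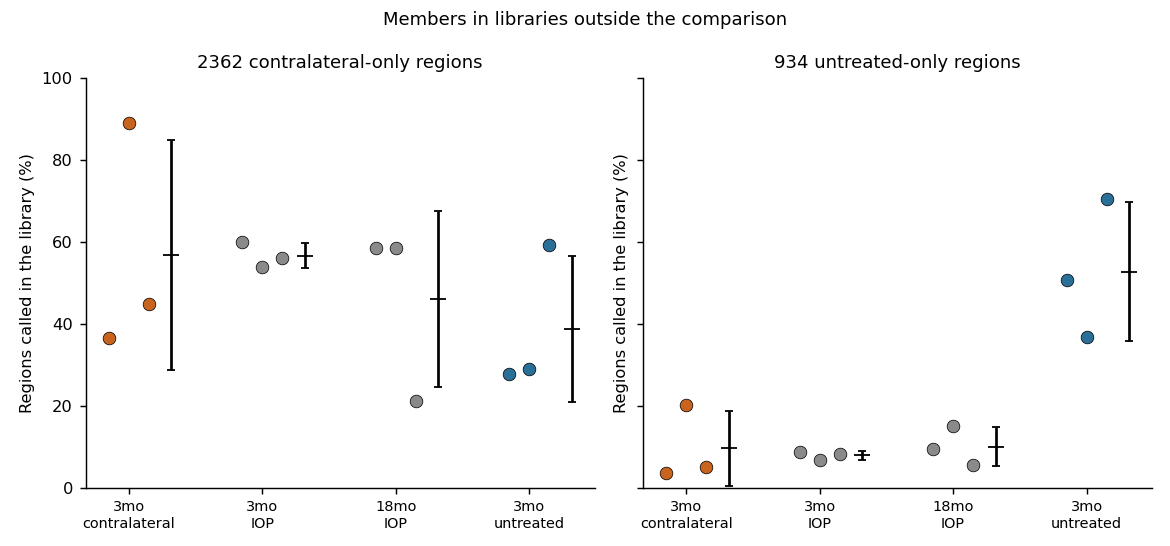
Share of the contralateral-only (left) and untreated-only (right) regions called in each library that did not enter their choice (%), by group. Points are libraries, and bars give the mean and SD of 3. Untreated-only regions were called in 36.8 to 70.7% in 3mo untreated libraries and in at most 20.2% in any other library.

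At genes that mark retinal cell types, lists of known markers were read by counts alone. Of all 74556 regions with an assigned gene (in the gene or within 100 kb of its TSS), 2.74% were contralateral-only and 1.15% untreated-only. The lists were checked against the tissue first. Promoters of 18 of 20 rod genes were called in all 6 lists, whereas 16 of 18 microglia, 12 of 17 endothelial and pericyte and 10 of 15 lens promoters were called in none. Other lists were mixed. Promoters called in all 6 lists and in none numbered 8 and 4 of 18 for Mueller glia and 7 and 8 of 21 for gliosis. They numbered 5 and 8 of 20 for ganglion cells, 5 and 5 of 17 for amacrine and horizontal cells and 6 and 4 of 16 for bipolar cells. The check therefore does not vouch for these lists. Contralateral-only regions made up 6 of 88 regions (6.82%) at Mueller glia genes, 6 of 105 (5.71%) at astrocyte and gliosis genes and 5 of 91 (5.49%) at retinal ganglion cell genes. Untreated-only regions made up 1, 1 and 0 of the same regions. At rod genes both kinds numbered 3 of 158 (1.90%). At cone genes they numbered 1 and 2 of 89, at bipolar genes 3 and 3 of 136, at fate regulator genes 2 and 3 of 176, and at amacrine and horizontal cell genes 1 and 0 of 78. These counts are too small to rank the lists, and a gene such as Otx2, Rlbp1 or Rorb stands in more than 1 of them.

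The contralateral-only regions at Mueller glia genes were at 6 different genes. At Rlbp1, which encodes the retinaldehyde-binding protein of Mueller glia and pigment epithelium, the region covered the promoter, 84 bp from the TSS (chr7:79386646-79387034), with a Crx and Otx2 match and summit folds of 5.40, 2.88 and 4.60. Its percentile was 28.6 ± 23.5 (SD, n = 3 lists), and 1 of 3 contralateral and 1 of 3 untreated 3mo libraries called it. Its pattern was lost with 50% overlap. The promoter of Slc6a9, the glycine transporter of amacrine cells and glia, was called 3 to 0 as well (chr4:117849072-117849331), with folds of 4.34, 3.88 and 3.99. An intron of Slc1a3, the glial glutamate transporter, gave folds of 7.35, 3.57 and 6.87, and a region 29066 bp downstream of Sox9, a factor that maintains Mueller glia, gave 6.59, 4.59 and 8.00. Both were also called in untreated 3mo libraries, in 3 and in 2 of 3. The Sox9 pattern was lost with 50% overlap. The others lay at Hes1, Id3 and Cd9.

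At retinal ganglion cell genes the contralateral-only regions included those at Rbpms, Pou4f2, Stmn2 and Ebf3, of which Pou4f2 encodes a factor that specifies these cells. The Pou4f2 region covered a coding exon, 247 bp from the TSS (chr8:78436261-78436675), with folds of 4.03, 5.10 and 5.05. Its pattern was lost with 50% overlap and with equal numbers of peaks. At 3mo it was called in 1 of 3 contralateral and 1 of 3 untreated libraries. The Stmn2 region lay in an intron of that axonal microtubule regulator, with folds of 4.94, 4.59 and 6.31. Its pattern was lost with 50% overlap, and 2 of 3 contralateral and 1 of 3 untreated 3mo libraries called it. Among gliosis genes, the region at Edn2, the endothelin that photoreceptors release under stress, lay 28943 bp downstream of the TSS and 879 bp from the nearest untreated peak, with folds of 5.56, 4.25 and 7.68. At 3mo it went the other way, called in 1 of 3 contralateral and 2 of 3 untreated libraries. Aldh1l1, an astrocyte enzyme of folate metabolism, held 2 regions, and Socs3, Nes and Cd44 held 1 each.

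The untreated-only regions at photoreceptor and bipolar genes included the gene of the factor itself. Otx2 held 2 of them among its 29 regions. The first lay in a promoter, 614 bp upstream of a TSS (chr14:48665606-48665796), 274 bp from a contralateral peak, with folds of 2.75, 2.94 and 2.31. Its mean percentile was 20.5, it held no Crx and Otx2 match, and its pattern was lost with equal numbers of peaks. Counted per gene, an Otx2 promoter was called in 3 of 3 contralateral and 3 of 3 untreated lists. The other untreated-only region of Otx2 lay 48761 bp upstream, inside the noncoding gene Otx2os1, with a Crx and Otx2 match and folds of 3.90, 3.97 and 6.00. An intronic region of Rcvrn, the calcium sensor recoverin of photoreceptors, which lies inside Glp2r as well and was 54% repeat-masked, and an intronic region of Nyx, the bipolar protein nyctalopin, also held a match, with folds of 2.46, 2.69 and 3.17 and of 8.6, 4.75 and 5.14. Those at Thrb, the thyroid hormone receptor of cones, and Pde6b, a subunit of the rod phosphodiesterase, did not. The Pde6b region was 78.5% repeat-masked and was called in no library outside the untreated 18mo group. The Rcvrn pattern was lost with 50% overlap and the Pde6b pattern with equal numbers of peaks. The same lists held contralateral-only regions too. These lay at the rod genes Grk1, Pde6a and Guca1b, the cone gene Rxrg, the fate regulators Esrrb and Pax6, and the bipolar genes Grm6, Prkca and Irx6. Those at Grk1, Pde6a, Esrrb, Pax6 and Irx6 lost their pattern under some alternative.

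At promoters of coding genes lay 168 contralateral-only and 32 untreated-only regions, of 12560 merged regions there. Besides those of the predicted genes Gm10717, Gm10718 and Gm10719 on chromosome 9, which were 100% repeat-masked, the highest-ranked contralateral-only promoters of coding genes were those of Sez6l, a neuronal membrane protein (folds of 9.56, 6.21 and 8.06), and Tmem176b, a membrane protein of immune and other cells (7.41, 7.27 and 8.78). The Sez6l promoter was called in every library outside the untreated 18mo group, the untreated 3mo libraries included. The promoter of Il1r1, the interleukin 1 receptor, was called 3 to 0 with folds of 8.24, 3.83 and 6.31, and its nearest untreated peak was 111375 bp away. A contralateral-only region 99 bp upstream of a TSS of Rxrg, a retinoid receptor of cones, had folds of 7, 4.21 and 4.63. Counted per gene, however, an Rxrg promoter was called in 3 of 3 contralateral and 3 of 3 untreated lists. Among promoters of coding genes, the highest-ranked untreated-only ones besides a Gm10717 one were those of Man2b2, Nt5m, Dmc1 and Dcbld1, with mean percentiles of 43.8, 43.4, 39.7 and 39.7. In the stress lists, the promoter of Egr3, an immediate early gene, and regions near Ier2 and Nfkbia, which encodes the inhibitor of NF-kB, were untreated-only, and regions near Fosl2 and Tnfaip3 and in an intron of Maff were contralateral-only. Of the AP-1 and immediate early regions 2 and 2 of 105 were members, of the inflammation regions 2 and 1 of 68, of the senescence regions 1 and 0 of 89, of the heat shock regions 1 and 0 of 40, of the clock regions 3 and 1 of 198, and of the axon and synapse regions 8 and 3 of 294. Microglia genes held 0 and 1 of 34, endothelial and pericyte genes 1 and 2 of 66, pigment epithelium genes 1 and 2 of 71 and lens genes 0 and 0 of 46.

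**Figure D5:**
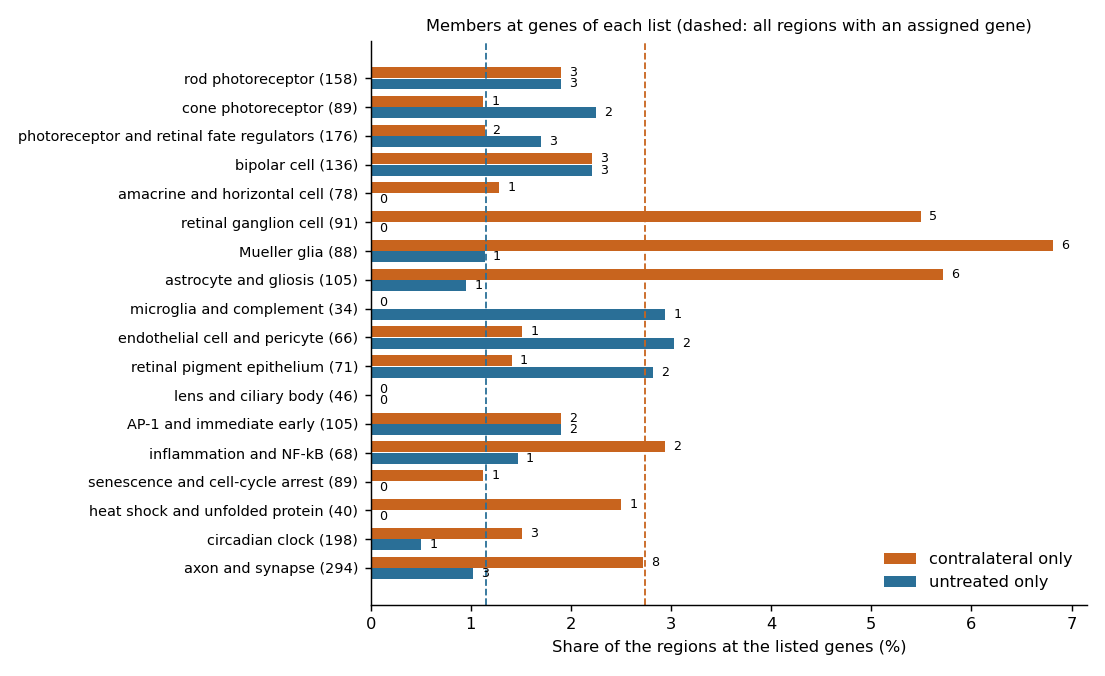
Share of the regions at the genes of each list that were contralateral-only (orange) or untreated-only (blue) (%), with the number of members at the end of each bar and the number of regions in brackets. Dashed lines are the shares over all regions with an assigned gene, 2.74% and 1.15%, and the 3 longest orange bars are those of Mueller glia, gliosis and ganglion cell genes.

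Single genes rarely gathered many members. Of 18614 genes with any region, contralateral-only regions were spread over 1969 and untreated-only ones over 830, and 150 genes had both. These counts name a region by its gene at any distance. Members made up 2.95% and 1.17% of all merged regions, and the genes named next were chosen after their values were seen. Tenm4, a teneurin of neuronal wiring, held 9 contralateral-only regions of its 40 regions, Id2, an inhibitor of bHLH factors, 4 of 11, and Lrp5, the Wnt co-receptor in which mutations disturb retinal vessels, 4 of 10. In Gm20388 and Camta1, which have many regions, 5 of 117 and 4 of 79 were contralateral-only. Dpysl3, a regulator of axon growth, held 4 untreated-only regions of 21. Chromosome Y gave 40, 32 and 33 peaks in contralateral and 36, 36 and 26 in untreated lists, and chromosome X 1125, 1032 and 1067 against 1200, 1055 and 1145, and the groups overlapped on both.

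Across whole lists, the covered length was 23.7 ± 1.47 Mb in contralateral and 16.3 ± 0.501 Mb in untreated 18mo lists (SD, n = 3 each), and the promoter share of peaks 24.1% ± 0.992 and 27.0% ± 0.758. The repeat-masked share of the summit windows was 10.1% ± 0.579 and 11.6% ± 0.141. In these 3 measures, and in median and shortest width, the groups did not overlap (p = 0.1 each, adjusted p = 0.171, exact permutation test, n = 3 each, the smallest p possible). The number of peaks differed by 3730 (p = 0.3, adjusted p = 0.45) and the median GC content by 0.167 points (p = 1, exact permutation tests, n = 3 each). The contralateral minus untreated difference was compared between ages. It was 7.41 Mb of covered length at 18mo and 7.71 Mb at 3mo (p = 0.945, adjusted p = 1), 111 and 178 bp of median width (p = 0.535, adjusted p = 0.642), and 3730 and -5472 peaks (p = 0.385, adjusted p = 0.513, exact permutation within ages, n = 3 in each group). No difference between ages passed, and with 3 libraries per group this does not show that the effects were alike.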

How the data were processed

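The data were MACS2 narrowPeak lists of ATAC-seq libraries of mouse retina, 1 list per library and unpooled. Per the study's text the authors called peaks at a q-value of 0.05. The submitters' processing notes name STAR 2.7.8a, bedtools 2.29.2, HOMER, edgeR, MACS2 and the build mm10, and the remaining steps are not given in the sources used here. The deposited columns used were start, end and summit, the fold (the ratio of summit pileup to local background), and the −log10 q-value. The deposited score and −log10 p-value were not needed. Lists hold no reads per region, so an uncalled region may have been open. The depth was estimated from the steps between fold values, with MACS2's default mouse genome size and the shortest peak as the fragment extension, and covers no sampling error. In the 18mo contralateral and untreated lists, 18.4 to 25.5% of the fold values lay on such steps.

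Peaks were merged with Python 3.11.15 (overlap of at least 1 bp), and merging was tested on simulated lists. Regions were annotated at the median summit with GENCODE M21 basic (GRCm38). Sequence came from RefSeq GRCm38.p6 (soft-masked) with pysam 0.24.0, and 200 bp around the summit were searched. Regions on unplaced contigs had no sequence. A region was named by the gene of its promoter, else the coding gene holding the summit, else the nearest coding TSS. Members were ranked by the mean percentile of the −log10 q-value in their 3 lists. The 8 highest-ranked per direction, the 6 highest with the same pattern at 3mo, the 5 highest coding promoters and up to 2 per gene list were to be named, and any other choice is marked in the text. Members, lists and tests were chosen with earlier results of these data known. Exact permutation tests (SciPy 1.17.1, two-sided) compared library values, with the Benjamini-Hochberg adjustment over 12 tests, and over 3 for the added Crx and Otx2 shares. The study's text calls its replicates biological, and pressure was raised unilaterally with the contralateral eye as control. The sources used here do not say which contralateral and IOP libraries share an animal, nor whether each untreated library came from its own animal. The p-values measure the spread between these libraries. Tests of 6 against 3 libraries count contralateral and IOP libraries of the same animals, if any, as independent. The alternatives were a 50% overlap, 200 bp summit windows, a q-value of 0.01, equal numbers of peaks, merging over 18 lists, wider promoters, 100 bp motif windows and leaving out each replicate. A few items are not reported here.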

Additional observations from a re-analysis of the deposited data

How the results depend on the processing

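No paired analysis was possible because the contralateral replicates are numbered 1 to 3 and the untreated ones 4 to 6 in the labels, so a replicate block could not be fitted.

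The number of contralateral-only regions was 2362 as reported and 7819 when a peak had to cover 50% of the merged region (the cause was not tested). The promoter share of that set was then 16.7% and its Crx and Otx2 share 8.73%. Of the 2362 regions 57.5% were in it. With 200 bp summit windows the untreated-only regions numbered 1861, with 22.9% at promoters (11.4% of contralateral-only regions, so the order turned) and a Crx and Otx2 share of 22.6% (the cause was not tested). With summit windows and equal numbers of peaks together, an alternative chosen after seeing the data, they numbered 1937 with 22.5% and 22.8%, and the promoter share of contralateral-only regions was 12.4%. Within 2.5 kb of a TSS in either direction lay 22.8% of contralateral-only and 20.1% of untreated-only regions. In 100 bp windows the Crx and Otx2 shares were 2.67% and 27.4%. Under each alternative run the Crx and Otx2 share of untreated-only regions stayed above that of contralateral-only regions.

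Leaving out a replicate loosens the rule from 3 lists to 2 on its side, or from 0 of 3 to 0 of 2. It gave 2945 to 5454 contralateral-only regions, the highest without contralateral replicate 2 (the widest peaks of the 6 lists compared), and 1269 to 1651 untreated-only regions, which were over 1.5 times the reported number without contralateral replicate 2 (1444), untreated replicate 4 (1411) and untreated replicate 5 (1651). The Crx and Otx2 shares ran from 4.39 to 6.18% and from 31.7 to 34.7%, and the promoter shares from 9.48 to 10.6% and from 6.02 to 7.41%. The difference in median GC of peaks ran from -0.0833 to 0.667 points and so changed sign, as did the difference between ages in covered length (-1.46 to 1.52 Mb), neither passing a test. For the members at 3mo, 6 against 3 libraries, the gap ran from 52.9 to 65.1 points, and without any 1 of the 3 untreated libraries p was 0.0714, the smallest that 6 against 2 allow. The same held for the per-library Crx and Otx2 share (-3.16 to -2.84 points). The named regions kept their pattern under all 4 alternatives tried on them in 24 of 39 contralateral-only and 27 of 32 untreated-only cases. Depth in reads is only estimated, so how many uncalled regions were open but under the threshold is unknown.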

Other observations

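Some contralateral-only regions of high rank and no repeat-masked base were called almost everywhere except in untreated 18mo retinas. Regions in introns of Cacng4, Ntrk3 (the neurotrophin 3 receptor) and Tmem178 and near Ercc6l2 were called in 3 of 3 untreated and 3 of 3 contralateral 3mo libraries. Their summit folds in the contralateral 18mo lists were 9.06, 7.65 and 9.68 at Ntrk3, 10.1, 5.74 and 12.7 at Tmem178 and 9.06, 8.04 and 8.00 at Ercc6l2. These regions were chosen after their values were seen. In all, 245 of the 2362 contralateral-only regions (10.4%) were called in 3 of 3 untreated 3mo libraries, and 704 (29.8%) in none. The same shares over all merged regions were not counted. Single untreated 3mo libraries called 27.8%, 29.1% and 59.4% of the contralateral-only regions and 53.5%, 50.2% and 65.9% of all merged regions.

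On the untreated side, a region 12404 bp upstream of Ifngr2, a chain of the interferon gamma receptor, had folds of 14.9, 13.6 and 14.8. It was called in 3 of 3 untreated 3mo libraries and in no contralateral or IOP library of either age, and its window had no repeat-masked base. Of the 934 untreated-only regions, 7 (0.749%) were called in 3 of 3 contralateral 3mo libraries and 241 (25.8%) in 3 of 3 untreated 3mo libraries. Here too the shares over all merged regions were not counted. Of all merged regions, single 3mo libraries called 47.4%, 70.5% and 49.9% (contralateral) and 53.5%, 50.2% and 65.9% (untreated). Unplaced contigs held 21 untreated-only and 4 contralateral-only regions of 153.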
